A study of Mus musculus with 4 samples.

Results

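The genes described here are 10 chemokines, cytokines and cytokine-induced genes, taken from a deposited table of 15768 genes by their symbols. They are the neutrophil chemokines Cxcl1 and Cxcl5, the chemokines Cxcl12, Cxcl16, Ccl2 and Ccl7, the cytokines Il6, Lif and Csf1, and Tnfaip2, a gene induced by tumour necrosis factor (TNF). They were measured by RNA-seq in JoMa 1.3, a mouse neural crest cell line whose labels call it neural crest stem cells, in a study that asked what acts downstream of a loss of Lkb1. The control siRNA group (labelled genotype WT) received a non-targeting pool, and the Lkb1 siRNA group (labelled Lkb1 KD) a pool against Stk11, the mouse gene for the kinase LKB1. Both groups received 60 nM siRNA for 72 h, in medium with epidermal and fibroblast growth factors and chick embryo extract. Each group had 2 libraries, 1 in culture batch 1 and 1 in culture batch 2. All came from a single cell line, and the labels name a pair of transfection reagents without saying which culture received which. Nothing says how far the cultures were independent, so p-values speak for these libraries only. The siRNA fit without batch leaves 2 residual degrees of freedom, and fits with group and batch leave 1. The spread behind a p-value is therefore estimated largely from other genes.

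Chemokines are small secreted proteins that steer migrating cells through receptors of the G protein-coupled family, and the spacing of their first cysteines names the CXC and CC classes. CXC chemokines with a glutamate-leucine-arginine (ELR) motif before the cysteines attract neutrophils through CXCR2. CXCL12 lacks the motif, acts through CXCR4 and guides stem cells and migrating progenitors, neural crest derivatives among them, and CCL2 and CCL7 attract monocytes through CCR2. Interleukin-6 and LIF signal through the shared receptor chain gp130 to STAT3, and CSF1 is the growth factor of macrophages. Many inflammatory members are transcribed through NF-kB, a factor that binds the kappaB motif, and their mRNAs often carry AU-rich elements that speed decay.

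The part of the coding sequence that sets the classes apart is shown first, because Cxcl1 and Cxcl5 had higher values after Lkb1 siRNA and Cxcl12 lower ones. Each window holds 60 coding bases, 5′ to 3′, from the GENCODE M21 transcript (GRCm38) matched to the RefSeq transcript. Capitals mark the codons for the first cysteine pair with the base triplet between them, where there is one, and in Cxcl1 and Cxcl5 the ELR codons before it.
Cxcl1: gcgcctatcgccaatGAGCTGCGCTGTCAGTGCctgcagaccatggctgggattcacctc
Cxcl5: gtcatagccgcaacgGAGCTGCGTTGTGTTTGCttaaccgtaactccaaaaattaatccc
Cxcl12: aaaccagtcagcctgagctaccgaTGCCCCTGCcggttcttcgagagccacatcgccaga
Cxcl16: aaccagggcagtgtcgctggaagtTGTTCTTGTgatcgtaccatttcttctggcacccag
Ccl2: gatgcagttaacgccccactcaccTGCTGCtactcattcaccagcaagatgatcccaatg
Ccl7: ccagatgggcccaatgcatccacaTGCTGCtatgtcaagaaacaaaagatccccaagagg
The ELR codons start at codon 30 of Cxcl1 and codon 50 of Cxcl5, counted from the start codon, and the CXC codons of Cxcl12 at codon 30. An in-frame match to ELR followed by CXC occurred in 9 of 21559 genes with a coding sequence (0.042%), namely Cxcl1, Cxcl2, Cxcl3, Cxcl5, Cxcl15, Ppbp and 3 genes that are no chemokines. By RefSeq's gene order, Cxcl1 lies on chromosome 5 between Cxcl15 and Cxcl2, and Cxcl5 lies on the same chromosome beside Ppbp. Ccl2 and Ccl7 are direct neighbours on chromosome 11.

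Library totals ran from 17426719 to 19324675 counts. Stk11, the siRNA target, was at 52.7 FPKM in the batch 1 control and 52.1 FPKM in the batch 2 control, against 36.3 and 36.9 FPKM with Lkb1 siRNA. Here and below, the first value of a pair is batch 1 and the second batch 2. Of 15 neural crest markers with a value 14 reached 1 TPM in a library, Snai2, Pax3, Sox9 and Erbb3 among them. Of the 14 tested, 7 had a higher and 7 a lower mean after Lkb1 siRNA. Erbb3 was at 3.11 and 3.6 TPM with control siRNA against 2.22 and 2.22 TPM with Lkb1 siRNA. Its log2 change was -0.65 (edgeR adjusted p = 0.139 without batch and 7.27e-06 with batch as a replicate block). Ednrb stayed under 1 TPM, and other markers such as Sox10 and Foxd3 were not analysed here. Of 13 fibroblast and mesenchymal markers 12 had a value and all 12 were expressed, while Thy1 had no value. The summed level of the 12 was 6317 to 6946 TPM in the control siRNA and 5439 to 5929 TPM in the Lkb1 siRNA libraries. Markers of blood cells were low: the 9 macrophage and monocyte genes with a value summed to at most 6.16 TPM in a library, and no neutrophil, lymphocyte or endothelial marker with a value reached 1 TPM.

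The cells expressed 5 of the 8 secreted or membrane-bound ligands with a tested level, and Tnfaip2, at more than 30 TPM. By TPM, a level per transcript length that can be compared between genes, Ccl2 was highest, at 289.3 to 347.8 TPM over the 4 libraries (place 438 of 15768 genes). Ccl7 followed at 211.5 to 244.0 TPM, then Cxcl1 at 132.7 to 283.9 TPM and Cxcl12 at 100.7 to 173.6 TPM. The ranges of Ccl7 and Cxcl1, and those of Cxcl1 and Cxcl12, overlapped, while Ccl2 lay above Ccl7 in range. Csf1 was at 84.4 to 94.0 TPM and Tnfaip2 at 30.3 to 37.4 TPM. Lif, at 4.76 to 5.62 TPM, and Cxcl5, at 1.84 to 5.61 TPM, overlapped. Cxcl16 was at 0.46 to 0.81 TPM and Il6 at 0 to 0.3 TPM.

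The members were chosen by their values in this same comparison of Lkb1 siRNA with control siRNA, in particular the higher Cxcl1 and Cxcl5 and the lower Cxcl12, so those changes are given as a description, with no p-value for a member. A total of 9 members passed the filter on low counts, and Il6 did not. The log2 changes below are Lkb1 siRNA minus control siRNA from edgeR, each with a standard error (SE), and CPM are counts scaled to library size with TMM factors. Both Lkb1 siRNA libraries lay above both control siRNA libraries for 3 members (Cxcl1, Cxcl5 and Lif) and below them for 2 (Csf1 and Tnfaip2). The remaining 4 overlapped. Among all 12222 genes tested, 21.2% lay above, 21.4% below and 42.7% apart in either direction. Since these values chose the members, nothing is read from the comparison of the counts. The same holds for how many of the 9 pass a threshold, which repeats the choice of the members and supports nothing. At an edgeR adjusted p of 0.05 without batch 0 of them passed, beside 0.0818% of all genes (0.0327% higher, 0.0491% lower), and 4 had an unadjusted p under 0.05, beside 11.1% of all genes. DESeq2 passed 0, beside 0.401% of all genes, and limma on log2(FPKM + 1) passed 0 of the 9 and 0 of all genes. With batch as a replicate block 5 passed (2 higher, 3 lower), beside 13.6% of all genes (6.59% higher, 6.99% lower). The median log2 change of the 9 was 0.05, beside 0.0 over all genes tested, and 6 had the same sign in both batches, as did 67.2% of all genes.

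**Figure D1:**
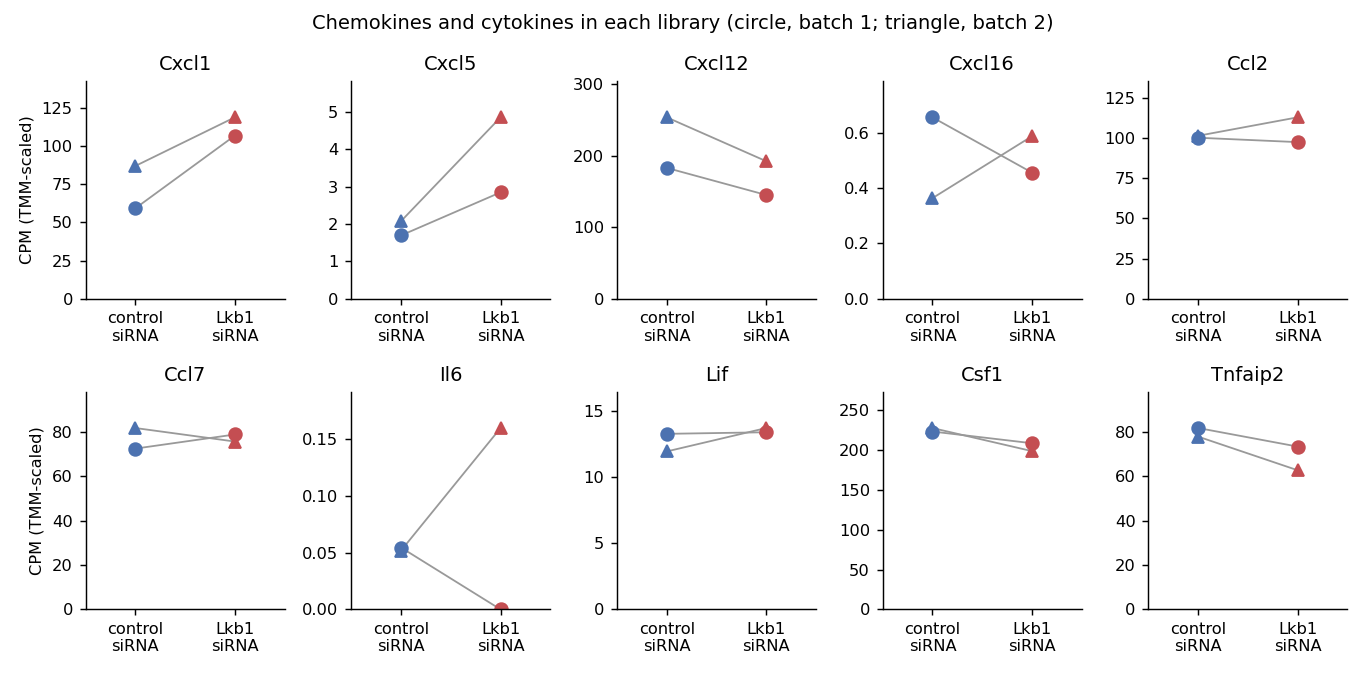
TMM-scaled CPM (vertical axes from 0, scaled per gene) of the 10 members in the control siRNA (blue) and Lkb1 siRNA (red) libraries; circles are batch 1, triangles batch 2, and lines join libraries of a batch. Cxcl1 and Cxcl5 were higher and Cxcl12, Csf1 and Tnfaip2 lower with Lkb1 siRNA in both batches, and for Cxcl12 the groups overlap.

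Cxcl1 (gene ID 14825), known as KC in the mouse, is a main neutrophil attractant released by stromal cells. It was at 59.3 and 87.1 CPM in the control siRNA libraries and at 107.0 and 119.0 CPM in the Lkb1 siRNA libraries. The Lkb1 siRNA libraries were both higher than either control, and the gap was wider in batch 1. The fold change was 1.54, a log2 change of 0.63 (SE 0.147), with 0.85 within batch 1 and 0.45 within batch 2. The log2 change was 0.38 when the batch 1 control was left out and 0.93 when the batch 2 control was. Leaving out 1 library makes the batches unequal between the groups, so these values mix the siRNA change with the batch difference.

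Cxcl5 (gene ID 20311), also called LIX, acts on the same neutrophil receptor. Its level was far lower, with 31 and 40 counts (1.69 and 2.07 CPM) in the control siRNA libraries and 50 and 91 counts (2.85 and 4.85 CPM) in the Lkb1 siRNA libraries. The 2 groups did not overlap, and the batch 2 library with Lkb1 siRNA stood highest. The fold change was 2.05, a log2 change of 1.03 (SE 0.302), with 0.71 in batch 1 and 1.19 in batch 2. It was 0.59 when the batch 2 library with Lkb1 siRNA was left out, a value that also mixes in the batch difference. Among the members, Cxcl5 and Cxcl1 had the largest increases.

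Cxcl12 (gene ID 20315), the stromal chemokine SDF-1, had the opposite sign. It was at 182.9 and 253.6 CPM with control siRNA and at 145.0 and 192.2 CPM with Lkb1 siRNA. Each Lkb1 siRNA library was below the control of its own batch, but the batch 2 library with Lkb1 siRNA was above the batch 1 control, so the groups overlapped. The log2 change was -0.37 (SE 0.158), or -22.7%, with -0.335 in batch 1 and -0.40 in batch 2. That SE comes from the fit without batch, so it includes the batch difference. The change was -0.12 when the batch 2 control was left out and -0.59 when the batch 1 control was. With 1 library left out the batches are unequal between the groups, so these values mix the siRNA change with the batch difference. Fibroblast and mesenchymal markers were lower in the same libraries. Their list was chosen with earlier results of these data known, so the counts here are a description. All 12 had a lower mean after Lkb1 siRNA (median log2 change -0.25), as did 6092 of all 12222 genes tested. By edgeR none passed without the block (0.0818% of all genes did), and 6 had an unadjusted p under 0.05 (11.1% of all genes). DESeq2 passed 2 of them (0.401% of all genes) and the fit with the replicate block 9, all lower (6.99% of all genes). Those with the smallest p were Acta2 (log2 change -0.41), Vim (-0.33), Tagln (-0.305) and Col1a1 (-0.35), which encode smooth muscle actin, vimentin, transgelin and a collagen chain. Their part in the Cxcl12 values was not tested. In a bulk culture, fewer cells of a type and less RNA per cell cannot be told apart.

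The ratio of Cxcl1 to Cxcl12 within a library repeats the contrast by which the genes were chosen and is given as a description. The TPM of Cxcl1 was 1.08 and 1.15 times that of Cxcl12 in the control siRNA libraries, and 2.51 and 2.12 times in the Lkb1 siRNA libraries.

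**Figure D2:**
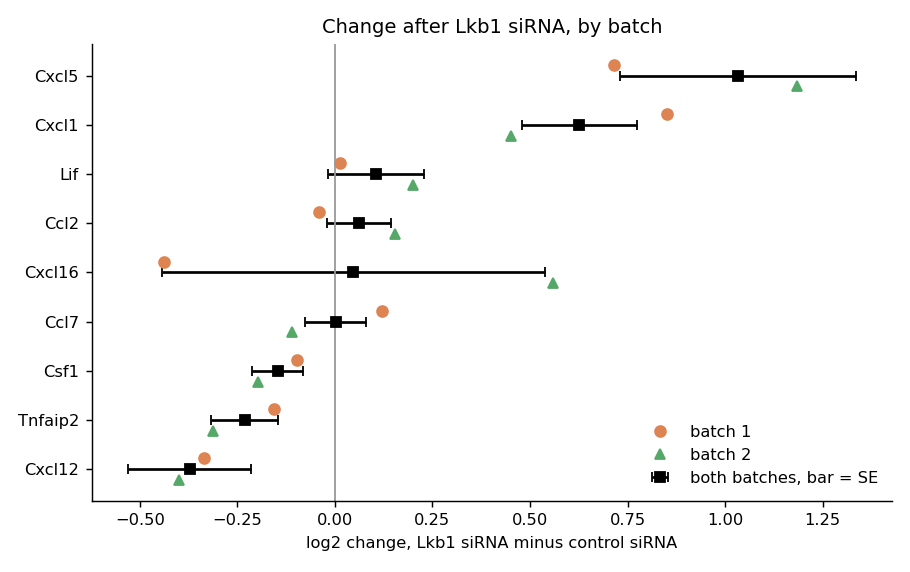
Log2 change (Lkb1 siRNA minus control siRNA, horizontal axis) of the 9 tested members; squares are the estimate over both batches with its SE as bar, circles the change within batch 1 and triangles within batch 2. Cxcl5 (1.03) and Cxcl1 (0.63) are farthest to the right and Cxcl12 (-0.37) farthest to the left, and Ccl2, Ccl7 and Cxcl16 have batches on opposite sides of 0.

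Ccl2 and Ccl7, the monocyte attractants, stayed close to their control levels. Ccl2 (gene ID 20296) was at 100.2 and 101.4 CPM with control siRNA and at 97.5 and 112.9 CPM with Lkb1 siRNA, a log2 change of 0.06 (SE 0.0814). Ccl7 (gene ID 20306) was at 72.5 and 81.8 CPM against 78.9 and 75.7 CPM, a log2 change of 0.00 (SE 0.0788). The groups overlapped for both genes, and the 2 batches had opposite signs: -0.04 and 0.155 for Ccl2, and 0.12 and -0.11 for Ccl7. Cxcl16 (gene ID 66102), a chemokine made as a membrane protein that binds CXCR6, had 12 and 7 counts with control siRNA and 8 and 11 with Lkb1 siRNA, so that no change could be resolved at this depth (log2 change 0.05, SE 0.490).

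Il6 (gene ID 16193) was barely detected, with 1 count in each control siRNA library and 0 and 3 counts in the Lkb1 siRNA libraries. A count of 0 in the batch 1 library allows up to 0.172 CPM of the library total (3 counts), so no fold is given. Lif (gene ID 16878), which signals through gp130 as IL-6 does, was at 13.3 and 11.9 CPM with control siRNA and at 13.4 and 13.7 CPM with Lkb1 siRNA. The groups lay apart by a small margin, with a log2 change of 0.11 (SE 0.123) that was within its error.

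Csf1 (gene ID 12977) was at 223.3 and 227.7 CPM with control siRNA and at 208.6 and 198.7 CPM with Lkb1 siRNA. Both Lkb1 siRNA libraries were lower, with a change of -9.69% (log2 change -0.15, SE 0.0663). Tnfaip2 (gene ID 21928), also called M-Sec, has a role in membrane nanotubes between cells. It was at 81.8 and 77.9 CPM against 73.4 and 62.8 CPM, with both Lkb1 siRNA libraries again below the controls (log2 change -0.23, SE 0.0862).

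The comparison of the culture batches did not enter the choice of the members and was tested. In the fit with group as a term, 12.9% of the 12222 genes differed between the batches, 6.3% higher and 6.62% lower in batch 2. That fit leaves 1 residual degree of freedom, so its SE and p-values rest mainly on the spread of other genes. Of the 9 members 2 passed, both higher in batch 2. Cxcl12 was 1.36 times as high in batch 2 (log2 difference 0.44, SE 0.0488, edgeR adjusted p = 4.19e-16), with 0.47 within the control siRNA and 0.41 within the Lkb1 siRNA libraries. Cxcl1 was 1.26 times as high (log2 difference 0.34, SE 0.0541, edgeR adjusted p = 1.31e-07), with 0.55 within the control siRNA and 0.15 within the Lkb1 siRNA libraries. The SE for Cxcl1 was larger with DESeq2 (0.196) and with limma on log2(FPKM + 1) (0.101). Cxcl1 passed with neither (DESeq2 adjusted p = 0.478, limma adjusted p = 0.138). Cxcl12 passed with both (DESeq2 adjusted p = 1.14e-05, limma adjusted p = 0.0307). Without a group term neither passed (edgeR adjusted p = 0.84 for Cxcl1 and 0.483 for Cxcl12).

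Cxcl5 had a log2 difference of 0.59 between the batches (SE 0.231, edgeR adjusted p = 0.0692) and Tnfaip2 one of -0.145 (SE 0.0570, edgeR adjusted p = 0.0722). Ccl2 was at 0.115 (SE 0.0520, edgeR adjusted p = 0.132). The remaining members were between -0.23 (Cxcl16) and 0.06 (Ccl7), with edgeR adjusted p from 0.56 to 0.84. Among the fibroblast and mesenchymal markers, 7 of 12 passed as higher in batch 2, with Postn (0.465) and Col1a1 (0.29) among them, 1 (Tagln, -0.14) passed as lower and 4 did not pass, Vim (0.02) among them. Postn is named after its value was seen. Their part in the batch difference was not tested.

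**Figure D3:**
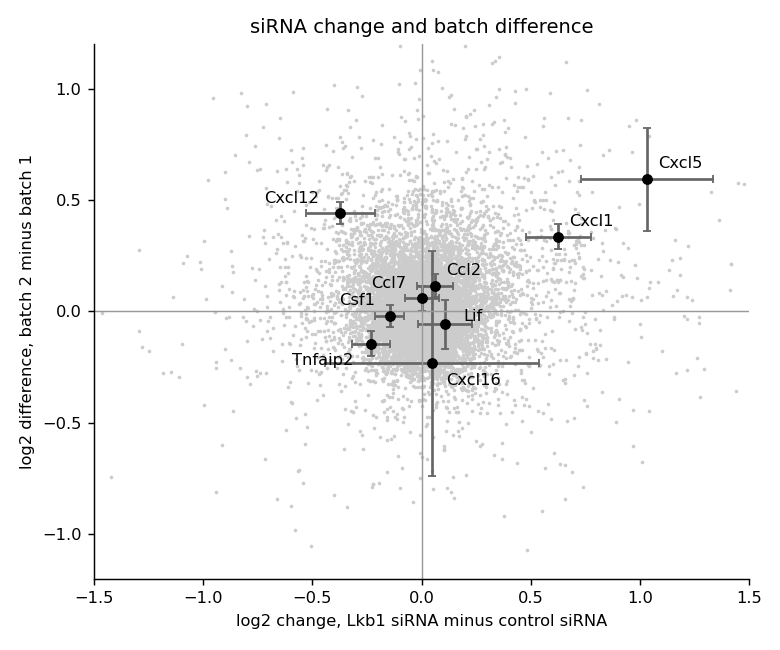
Log2 change after Lkb1 siRNA (horizontal axis) against the log2 difference of batch 2 and batch 1 (vertical axis) for the 9 tested members (black, bars are SE) over all 12222 tested genes (grey, those beyond the axes are not drawn). Cxcl12, Cxcl1 and Cxcl5 lie at 0.44, 0.34 and 0.59 on the batch axis, Cxcl12 to the left and the other two to the right of 0 on the siRNA axis.

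Cxcl12 is spliced to isoforms that differ only at the end of the protein, and the gamma isoform carries a long basic tail that binds heparan sulphate. The coding ends below show where the transcripts part, because the change in Cxcl12 was read for each of them. The lower-case bases are the last 24 of the 267 coding bases that all 3 share, and the capitals are each isoform's own end with its stop codon.
Cxcl12 alpha: tacctggagaaagctttaaacaagTAA
Cxcl12 beta: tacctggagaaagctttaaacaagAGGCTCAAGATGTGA
Cxcl12 gamma: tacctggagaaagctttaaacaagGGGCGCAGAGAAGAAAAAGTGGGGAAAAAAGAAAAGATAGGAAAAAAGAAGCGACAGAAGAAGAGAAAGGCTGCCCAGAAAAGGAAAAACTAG
The alpha transcript was at 47.2 and 65.0 FPKM in the control siRNA and at 37.4 and 49.0 FPKM in the Lkb1 siRNA libraries. The beta transcript was at 30.6 and 44.8 against 25.3 and 33.2 FPKM. Both were lower with Lkb1 siRNA within each batch and higher in batch 2 within each group, as was the gene. The gamma transcript was low throughout, at 3.0 and 3.87 against 2.65 and 4.01 FPKM, with opposite signs in the batches.

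The gamma transcript took 9.01% of the estimated Cxcl12 counts in the batch 1 control (exact 95% interval 8.06 to 10.0%) and 8.22% in the batch 2 control (7.46 to 9.02%). With Lkb1 siRNA it took 9.74% (8.61 to 10.9%) in batch 1 and 11.1% (10.1 to 12.1%) in batch 2. The intervals cover counting error only, not the error of assigning shared reads to transcripts. The beta transcript held between 49.1 and 51.0% of the counts in every library. The main Csf1 transcript held between 85.9 and 88.3% of the Csf1 counts. Some other transcripts moved more. The Lif transcript with most counts in the batch 1 control held 69.1 and 54.8% of the Lif counts with control siRNA. With Lkb1 siRNA it held 26.8 and 61.1%. A minor Csf1 transcript had 114 and 0 counts with control siRNA against 104 and 115. How far the assignment of reads enters the gamma share was not tested.

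**Figure D4:**
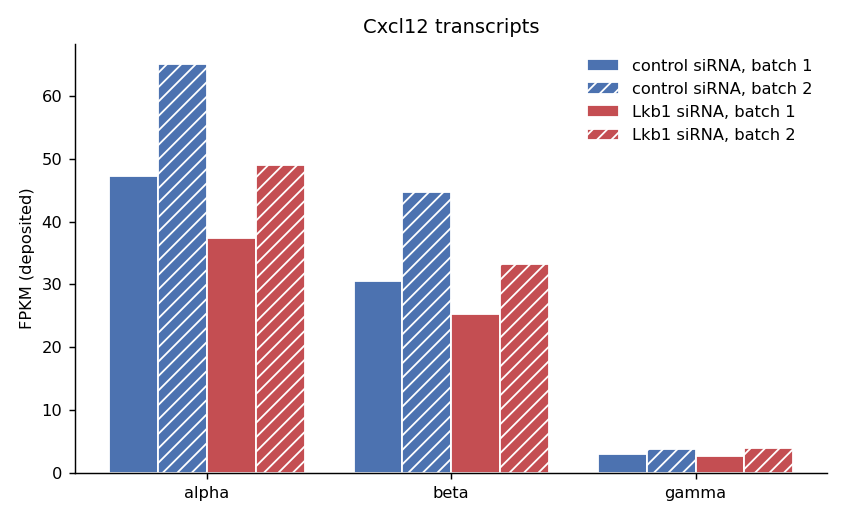
Deposited FPKM (vertical axis) of the 3 Cxcl12 transcripts in each library; blue bars are control siRNA, red bars Lkb1 siRNA, and hatched bars batch 2. The alpha and beta bars are lower with Lkb1 siRNA in both batches, and the gamma bars stay between 2.65 and 4.01 FPKM.

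The promoters were compared for the kappaB motif because NF-kB is the textbook regulator of the inflammatory members. RefSeq promoters (GRCm38.p6, 250 bases before to 50 after the start) were at hand for 6 of the 10 members. A match to the kappaB consensus on either strand was found for 5 of them, Cxcl1, Csf1, Il6, Lif and Tnfaip2, and for 8.46% of all 32851 promoters of that length. The windows of Cxcl1 and Cxcl12 are shown for their opposite changes, and that of Csf1 because it holds a match and was lower. Each has 130 bases, 5′ to 3′ on the gene's strand, and capitals mark the match.
Cxcl1, plus strand, chr5:90891115-90891244: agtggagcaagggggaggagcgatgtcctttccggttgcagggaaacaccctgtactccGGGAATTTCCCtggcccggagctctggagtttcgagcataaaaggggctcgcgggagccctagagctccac
Cxcl12, plus strand, chr6:117168405-117168534: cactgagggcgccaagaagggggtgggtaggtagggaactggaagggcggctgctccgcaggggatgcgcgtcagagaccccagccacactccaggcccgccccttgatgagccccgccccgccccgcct
Csf1, minus strand, chr3:107760530-107760659: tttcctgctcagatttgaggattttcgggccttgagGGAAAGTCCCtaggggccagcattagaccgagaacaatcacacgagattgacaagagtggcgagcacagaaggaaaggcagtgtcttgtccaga
In Cxcl1 a pair of overlapping matches on opposite strands starts 71 and 70 bases before the start, and in Csf1 the match starts 154 bases before it. Cxcl12 had none in its 300 bases. TATAAA, found in 13.6% of promoters, was in none of the 6, and the AP-1 motif (TGACTCA or TGAGTCA, 5.2% of promoters) was found for Il6 and Lif. A match describes the letters only. The AU-rich nonamer TTATTTATT occurred downstream of the stop codon 2 times in Cxcl1 and 2 times in Lif, in none of the other 8 members, and at least once in 8.505% of 11793 tested genes. The shorter ATTTA occurred there 10 times in Il6, 7 in Cxcl1 and in Lif, and 5 in Cxcl5. It occurred 4 times in Cxcl12 and in Csf1, 2 in Cxcl16, Ccl7 and Tnfaip2, and 1 time in Ccl2. Those stretches ran from 275 to 5188 bases, and no share over all genes was taken for ATTTA.

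A total of 9 lists held the other genes of these pathways, with 180 tested genes in all. By edgeR without the block none of the 180 passed, beside 0.0818% of all genes, while 22 had an unadjusted p under 0.05, beside 11.1% of all genes, and DESeq2 passed 1, beside 0.401%. With the replicate block (blocked, below) 13 passed as higher and 18 as lower, beside 6.59% and 6.99% of all genes. Of the 180, 94 had a higher and 86 a lower mean, with a median log2 change of 0.01. Among all 12222 genes tested, 6130 had a higher and 6092 a lower mean. The lists were chosen with earlier results of these data known, so the direction counts per list below are a description.

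Of the 11 other chemokines tested, 8 had a higher mean after Lkb1 siRNA, with a median log2 change of 0.15. Cxcl3, another ELR chemokine, had the smallest p of them, with 9 and 9 counts in the control siRNA libraries and 34 and 28 in the Lkb1 siRNA libraries. Its log2 change was 1.82 (SE 0.365, edgeR adjusted p = 0.133 unblocked and 0.000104 blocked). The other tested ELR chemokines, Ppbp and Cxcl15, were at 0.25 (SE 0.192, edgeR adjusted p = 0.657) and 0.185 (SE 0.451, edgeR adjusted p = 0.907). Cxcl1, Cxcl2 and Cxcl3 are close relatives in sequence, and how reads were shared among them was not tested. Cxcl2 had at most 1 count in a library, and Cxcl15 and Cxcl2 are named here after their values were seen, as the rest of that class. The eosinophil attractant Ccl11 had 7 and 4 counts against 11 and 15 (log2 change 1.27, SE 0.505, edgeR adjusted p = 0.396). Ccl27a was at 0.41 (edgeR adjusted p = 0.625). Ccl5, the most abundant of the list, was at 76.3 and 98.6 TPM against 78.2 and 85.0 TPM (log2 change -0.19, edgeR adjusted p = 0.657).

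Receptors for these ligands were mostly low. Of 23 chemokine receptors and scavengers 1 passed the filter on low counts, Ackr3, a scavenger of CXCL12, at 16.5 and 19.4 TPM with control siRNA and 19.7 and 23.2 TPM with Lkb1 siRNA (log2 change 0.19, SE 0.117, edgeR adjusted p = 0.564). Cxcr4, the signalling receptor of CXCL12, had 3 and 2 counts against 0 and 1, and Cxcr2, the receptor of CXCL1 and CXCL5, had between 1 and 3 counts in every library. Csf1r, the receptor of CSF1, was at 0.12 to 0.19 TPM; Cxcr4, Cxcr2 and Csf1r are named as the members' receptors, outside the rule for named genes. Of 25 cytokine receptors 17 had a lower mean, with a median log2 change of -0.07. Il6st, which encodes gp130, was the most abundant receptor, at 193.3 and 218.4 TPM against 177.5 and 200.5 TPM (log2 change -0.18, SE 0.0784, edgeR adjusted p = 0.438 unblocked and 0.00178 blocked). Ifngr2, an interferon-gamma receptor chain, was at -0.21 (edgeR adjusted p = 0.382 unblocked and 0.00798 blocked) and the TNF receptor Tnfrsf1b at -0.16 (0.449 and 0.0245). Il6ra was at 3.94 and 3.69 TPM against 4.94 and 5.12 TPM (edgeR adjusted p = 0.413).

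Of 18 other cytokines 11 had a higher mean, with a median log2 change of 0.04. They included Il1rn, the interleukin-1 receptor antagonist, with a log2 change of -0.48 (SE 0.107, edgeR adjusted p = 0.182 unblocked and 6.2e-05 blocked), and the alarmin Il33 at -0.20 (SE 0.0688, edgeR adjusted p = 0.344 unblocked and 0.00112 blocked). The TNF family ligand Tnfsf13 was at 0.67 (SE 0.219, edgeR adjusted p = 0.325 unblocked and 0.0227 blocked). Spp1, which encodes osteopontin, was the most abundant, at 1519 to 1778 TPM (log2 change -0.15, edgeR adjusted p = 0.56 unblocked and 0.0138 blocked).

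Of 45 NF-kB subunits, kinases and inhibitors, 26 had a higher mean, with a median log2 change of 0.03. Nfkbiz, a nuclear NF-kB cofactor induced by inflammatory signals, was at 19.5 and 21.9 TPM against 26.3 and 29.1 TPM (log2 change 0.36, SE 0.0841, edgeR adjusted p = 0.19 unblocked and 1.36e-06 blocked). The endotoxin receptor Tlr4 was at -0.31 (edgeR adjusted p = 0.36 unblocked and 0.0239 blocked), the kinase Map3k7 at 0.18 (0.375 and 0.0163) and the inhibitor Nfkbie at 0.24 (0.437 and 0.0734). The most abundant, the subunit Nfkb1, was at -0.10 (edgeR adjusted p = 0.604). Of 24 other NF-kB target genes 17 had a lower mean, with a median of -0.08. The collagenase Mmp13 was at -0.76 (SE 0.155, edgeR adjusted p = 0.134 unblocked and 4.11e-06 blocked) and the stromelysin Mmp3 at -0.72 (SE 0.268, edgeR adjusted p = 0.362 unblocked and 0.0166 blocked), while the gelatinase Mmp9 was at 0.34 (SE 0.0975, edgeR adjusted p = 0.28 unblocked and 2.12e-06 blocked). The transcription factor gene Cebpd was at -0.39 (edgeR adjusted p = 0.455) and Tapbp, the most abundant, at -0.08 (0.711). These targets had values on both sides of 0. A part of NF-kB in the values of the members was not tested.

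Of 22 JAK and STAT3 pathway genes 11 had a higher and 11 a lower mean. The STAT3-induced kinase Pim1 was at -0.34 (SE 0.127, edgeR adjusted p = 0.359 unblocked and 0.0261 blocked) and Stat3, the most abundant, at 0.10 (edgeR adjusted p = 0.609). The feedback inhibitors Socs4 and Socs1 were at 0.18 and 0.30 and the kinase Jak1 at -0.13 (edgeR adjusted p from 0.437 to 0.526). Of 19 cytokine mRNA decay and AU-rich element factors, 17 had a higher mean, with a median of 0.085. Tia1, which binds AU-rich elements and represses translation, was at 22.2 and 28.2 TPM against 38.9 and 39.0 TPM (log2 change 0.59, SE 0.0992, edgeR adjusted p = 0.0847 unblocked and 1.87e-23 blocked), and was the gene of the 180 that DESeq2 passed (adjusted p = 0.000705). The deadenylase subunit Cnot7 was at 0.18, Tial1, a relative of Tia1, at 0.17 and Rc3h2 at 0.19, while Ybx1, the most abundant, was at -0.125 (edgeR adjusted p from 0.382 to 0.626, and blocked from 0.0158 to 0.0384). Of 15 sheddases and chemokine proteases 10 had a lower mean, with a median of -0.06. They included the cathepsin Ctsb at -0.19 (SE 0.0660, edgeR adjusted p = 0.358 unblocked and 0.0014 blocked) and Adam17, the sheddase of CSF1, at -0.12 (edgeR adjusted p = 0.536). The protease inhibitors Timp3 and Timp1 were at -0.17 and -0.20 (edgeR adjusted p = 0.427 and 0.456, and blocked 0.00871 and 0.0437).

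**Figure D5:**
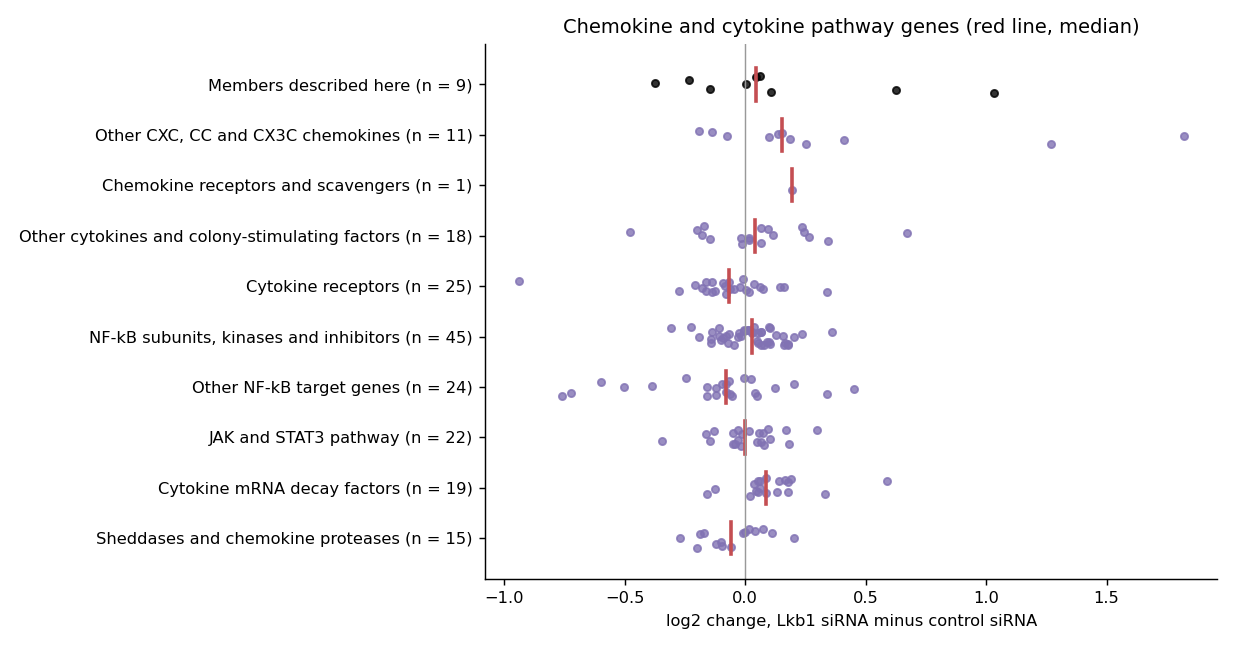
Log2 change after Lkb1 siRNA (horizontal axis) of each tested gene (points, spread vertically for sight) of the 9 tested members and the 9 pathway lists, with the median as a red line. The points at 1.82 and 1.27 among the other chemokines are Cxcl3 and Ccl11, and the list medians lie between -0.08 and 0.194.

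The genes whose values over the 4 libraries were most like those of Cxcl1 and Cxcl12 were sought among 10115 genes with a mean of at least 5 CPM over the 4 libraries. Likeness was the distance between log2 CPM, each gene centred on its own mean. Nearest to Cxcl1 were Ankrd24 (distance 0.06), Igfbp5 (0.086), which encodes an insulin-like growth factor binding protein, and Igf1 (0.087), the growth factor itself. Igfbp5 was at 49.2 and 73.8 CPM with control siRNA and at 84.9 and 102.1 CPM with Lkb1 siRNA. Nearest to Cxcl12 were Zbtb8a (distance 0.022), Hgf (0.057), the hepatocyte growth factor, and Atg10 (0.072). Hgf was at 24.9 and 33.4 CPM against 19.9 and 25.3 CPM. With 4 libraries such a likeness reflects the siRNA and the batch together.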

How the data were processed

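The submitters' processing notes name RSEM 1.2.8, Bowtie2 2.2.5, HISAT2 2.0.4 and the build GRCm39, with no roles. For the annotation, no release is given in the sources used here. Reads were 150 bp pairs, per the labels. The deposited read counts were expected counts made by the authors, of which 5.73 to 5.97% per library were not whole; they were rounded. FPKM and TPM were the authors' deposited values per transcript length. Doubled decimal points (24 cells of the gene table, 56 of the transcript table) were read as 1, and 2 symbols turned into dates were restored by gene ID. The normalised counts (4 columns per table) were not used.

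Counts were tested with edgeR 4.0.16 (R 4.3.3): quasi-likelihood F-test, TMM, minimum count 10, Benjamini-Hochberg adjustment over 12222 genes, threshold 0.05. Lkb1 siRNA was fitted without batch, and with batch as a replicate block; the batch difference had group as a term. Alternatives used DESeq2 1.42.0 and limma 3.58.1. Fits were tested on simulated data. The simulated libraries were drawn independently, with no batch difference for the siRNA comparison, so they do not vouch for the fits on these libraries. The labels state the batch, so the culture numbers pair the libraries; deviations of same-batch libraries correlated at 0.259 over 12222 genes. The members and lists were chosen with earlier results of these data known. Genes named were the members, Stk11, in each list the 4 with the smallest p and the most abundant, and the 3 most like Cxcl1 and Cxcl12. Marker lists of other cells are given mainly as sums, and some markers, receptors and relatives are named outside the rule. Some genes the rule selects are not reported here. Coding sequences came from GENCODE M21 and promoters from RefSeq, both GRCm38, by transcript or gene ID.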

Additional observations from a re-analysis of the deposited data

How the results depend on the processing

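The number of genes that passed for Lkb1 siRNA, 10 (4 higher, 6 lower), was 3 (2 higher, 1 lower) when scaled by library size, 49 by DESeq2, 45 when 1 count in any library sufficed, 4 with a mean of at least 5 CPM, 0 by limma at a pseudocount of 1 or 0.1 FPKM, where 1313 and 1323 genes had an unadjusted p under 0.05, and 1660 with the replicate block. Leaving out 1 library gave 66 to 253, with the lone library of a group assumed to vary like the others. The 1579 genes that differed between the batches (770 higher, 809 lower) were split 924 and 625 with library size, and numbered 100 with DESeq2, 55 and 115 by limma at those pseudocounts, and 0 without the group term, where 1231 had an unadjusted p under 0.05. Leaving out a library from that fit leaves no residual degree of freedom, so it was not run. The signs of Cxcl1, Cxcl12, Lif, Csf1 and Tnfaip2 held in 11 of 11 alternatives and that of Cxcl5 in the 10 that tested it. They turned in 1 of 11 for Ccl2, in 3 of 11 for Ccl7 and in 2 of 10 for Cxcl16. Every alternative refits the libraries whose values chose the members, so these sign counts repeat the choice and support nothing. Where the groups did not overlap, leaving out 1 library at the same scaling cannot turn the sign. The ranges were 0.38 to 0.93 for Cxcl1, 0.59 to 1.36 for Cxcl5, -0.59 to -0.12 for Cxcl12, 0.03 to 0.18 for Lif and -0.345 to -0.12 for Tnfaip2 (log2). The ends of these ranges came from fits with 1 library left out, which mix the siRNA change with the batch difference. Beyond that, the cause of these shifts was not tested. Depth limits Il6 and Cxcl16, with at most 12 counts in a library, and Cxcl5, with 31 to 91.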
